A study of Arabidopsis thaliana with 36 samples.

Results

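The plastid-encoded genes of Arabidopsis were followed as the 133 loci whose names begin with ATCG, out of 28775 loci in the deposited count tables. RNA was sequenced from sink leaves, rosette buds, flowers and source leaves of plants labelled quintuple mutant, triple mutant and wild type (WT), all in the Col-0 background, with 3 biological replicates per genotype and tissue and 36 libraries in all. The mutants are labelled as lacking members of the S1 group of bZIP transcription factors, and which genes or alleles are mutated is not given in the labels. All plants were untreated and grew on soil in 16 h of light and 8 h of darkness at 60% humidity and 100 µmol of light per square metre and second, until the main inflorescence began to flower. From each sample 500 ng of total RNA was enriched for poly-A RNA on oligo-dT beads, so the values below describe plastid RNA that came through this selection and not total plastid RNA. Library totals lay between 18158887 and 25124369 counts.

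Plastid genes are transcribed in long units by a plastid-encoded RNA polymerase, guided by nuclear-encoded sigma factors, and by nuclear-encoded phage-type polymerases. Plastid messages carry no lasting poly-A tail, and in plastids such a tail marks an RNA for decay. Ribosomal RNA is the bulk of plastid RNA, and the messages for photosynthesis proteins are most abundant in green tissue.

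The RefSeq reference annotation used here lists 129 plastid genes, of which 85 code for proteins, 37 for tRNAs and 7 for rRNAs, under other locus names than the count tables. It pairs 0 of the 133 ATCG names with a gene. Its notes on other genes name 6 of them as matches and give a product name for each, which was not checked here. These are ATCG00430 (photosystem II reaction center protein G), ATCG00530 (a CemA-like protein related to proton extrusion), ATCG00660 (ribosomal protein L20), ATCG00670 (the plastid-encoded Clp protease subunit), ATCG00750 (ribosomal protein S11) and ATCG01310 (ribosomal protein L2). All other loci are given by their names in the count tables and without a role.

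The tissue markers were checked first. AP3, a floral organ identity gene, stood at 35.3 to 80.1 counts per 1000000 counts of a library (CPM) in the flower libraries and at 0 to 0.0965 CPM in leaves. BRC1, which is known for holding back axillary buds, stood at 11.2 to 30.1 CPM in the bud libraries. It also stood at 25.7, 44.1 and 18.1 CPM in quintuple flowers, against 2.45 to 3.62 CPM in WT flowers. In quintuple sink leaves BRC1 stood at 0.382, 3.21 and 4.55 CPM, against 0.213, 0.252 and 0.263 CPM in WT. Quintuple source leaves had 0.0947, 0.514 and 1.39 CPM, against 0.358, 0.240 and 0.135 CPM in WT. Triple leaves had 0 to 0.144 CPM. In quintuple buds BRC1 stood at 12.9, 18.2 and 19.2 CPM and in triple buds at 19.5, 11.2 and 11.3 CPM. WT buds had 26.4, 23.4 and 30.1 CPM. At an adjusted p under 0.05 in edgeR, BRC1 was lower in triple buds (log2 fold −0.99) and higher in quintuple flowers (3.24). AP3 was lower in quintuple flowers (−0.74), at 52.8, 50.6 and 35.3 CPM against 77.0, 73.1 and 71.9 CPM in WT. The BRC1 call in triple buds was lost with the quintuple libraries added to the fit. In the third quintuple bud library AP3 was at 0.0497 CPM and the plastid share was the lowest of all 36 libraries. The third triple flower library had 1.53% of its counts on the 4 nuclear rRNA loci of the tables, against 0.553% and 0.575% in the other triple flower libraries.

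The plastid loci together took between 0.0437% and 2.20% of a library, with a median of 0.878%. The exact binomial (Clopper-Pearson) 95% interval of the lowest share, 0.0437% in the third quintuple bud library, ran between 0.0428% and 0.0446%. Such intervals cover counting error only, and the spread between replicates was far larger: the first quintuple bud library had 0.289%. The plot of the plastid share by library shows this spread in every group.

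**Figure D1:**
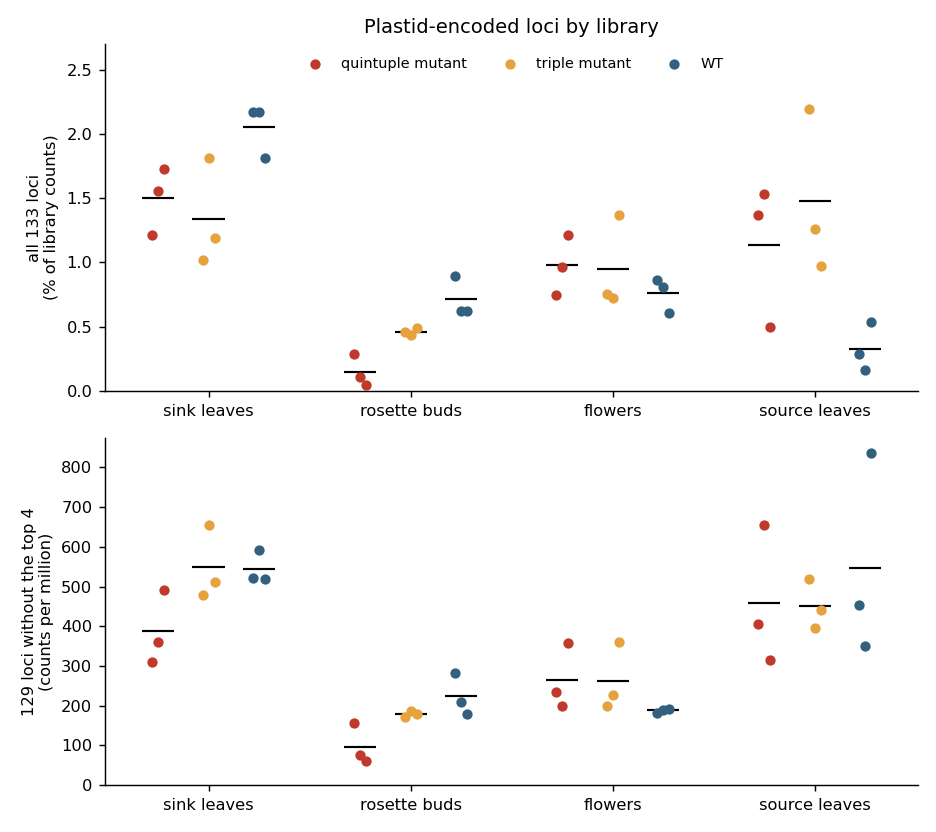
Plastid-encoded loci in 36 libraries. Upper panel, all 133 loci as percent of library counts; lower panel, the 129 loci left without the 4 with most counts, in CPM; points are libraries, black lines are means of 3, and groups run quintuple, triple, WT within each tissue. The upper panel sets WT source leaves (0.160% to 0.539%) below every triple source leaf library, while in the lower panel these groups overlap.

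Only 4 loci made up nearly all of this share. ATCG01180 held 31.6% ± 1.76 of the plastid counts and ATCG00950 31.6% ± 1.87, while ATCG01210 held 16.0% ± 0.986 and ATCG00920 15.9% ± 0.981 (mean ± SD over 36 libraries). Together these 4 loci held between 78.1% and 97.9% of the plastid counts of a library, on average 95.1% ± 4.50. A share of counts is not a level per length, so it does not rank the loci by the number of RNA molecules. The annotation used here lists rRNA genes of 2810 and 1491 bases, but does not tell whether these 4 loci are among them. The remaining 129 loci summed to between 59.4 and 836 CPM.

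Several loci had near-equal counts throughout. Among the 24 loci with at least 4000 counts there are 276 pairs, of which 9 had totals within 2% of each other and 7 of these differed by little more than counting noise from library to library (mean chi-square under 2 per library). The 7 pairs were ATCG00950 with ATCG01180, ATCG00920 with ATCG01210, ATCG00930 with ATCG01200, ATCG00940 with ATCG01190, ATCG00960 with ATCG01170, ATCG00830 with ATCG01310, and ATCG00340 with ATCG00350. ATCG00950 and ATCG01180 had 2421773 and 2419980 counts in all. Neither the labels nor the count tables tell whether reads of identical copies were divided between such loci. The loci of a pair may therefore be 1 measurement or separate loci of like level. The counts below take loci singly unless they say otherwise. Loci of fewer than 4000 counts were not searched, although some had close totals, such as ATCG00840 and ATCG01300 with 433 and 431 counts. Counts with each near-equal pair taken once therefore merge these 7 pairs only.

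The 4 leading loci kept to similar proportions. The ratio of ATCG00950 to ATCG00920 had a median of 1.99 and a range of 1.498 to 2.28 over the libraries. Of the 133 loci, 72 had at least 1 count in every library, 22 had fewer than 36 counts over all libraries, and 0 were without any count. Of the 129 remaining loci the 10 with most counts held 53.0% of the counts outside the top 4, led by ATCG00020, ATCG00490 and ATCG00480.

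The counts of the 129 loci differed in make-up between tissues, as the map of the 20 loci with most counts shows. ATCG00190 took 6.74% of them in WT rosette buds, 5.06% in WT flowers and 1.19% in WT sink leaves, against 0.975% in WT source leaves. ATCG00340 took 3.44% in WT rosette buds, 3.83% in WT flowers and 3.88% in WT sink leaves, against 9.13% in WT source leaves. ATCG00020 took 3.60% in WT buds and 5.39% in WT flowers, but 12.5% in WT sink leaves, against 10.7% in WT source leaves. ATCG00180 and ATCG00190 had their highest shares in buds of all 3 genotypes.

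**Figure D2:**
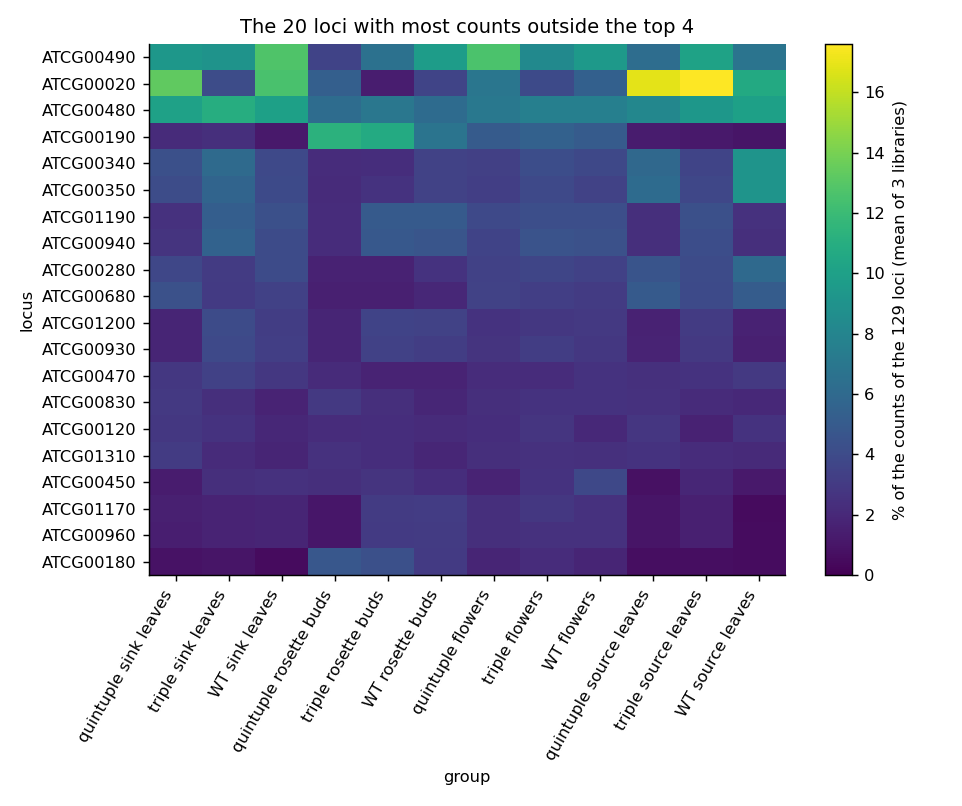
Make-up of the plastid counts outside the top 4 loci. Rows are the 20 loci with most counts, columns the 12 groups, and colour the percent of the counts of the 129 loci (mean of 3 libraries). ATCG00020 reached 17.6% in triple source leaves and was at 1.44% in triple buds, and ATCG00190 was at 11.3% in quintuple buds and at 0.975% in WT source leaves.

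Among WT tissues, the summed plastid share was higher in each sink organ than in source leaves, while the sum without the 4 leading loci was not. The share was 2.17%, 2.17% and 1.81% in WT sink leaves, 0.893%, 0.619% and 0.623% in WT rosette buds and 0.863%, 0.806% and 0.606% in WT flowers, against 0.288%, 0.160% and 0.539% in WT source leaves. No library of these 3 organs overlapped with source leaves. The remaining 129 loci summed to 281, 209 and 179 CPM in buds and 182, 189.7 and 192 CPM in flowers, against 453, 351 and 836 CPM in source leaves, so that both organs lay below every source leaf library. In sink leaves they summed to 521, 591 and 518 CPM and overlapped with source leaves. In whole organs, fewer plastid-rich cells and less plastid RNA per cell cannot be told apart.

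Locus by locus, WT sink leaves had 17 plastid loci higher and 2 lower than WT source leaves (edgeR quasi-likelihood test, Benjamini-Hochberg adjusted p under 0.05). These were 19 of 83 loci with enough counts to be tested, where 22.2% of all loci tested passed, 13.2% as higher and 9.01% as lower. The median log2 fold of the members was 0.20, against 0.00 over all loci. ATCG00950 stood at 6886, 6824 and 5797 CPM in sink leaves, against 806, 414 and 1526 CPM in source leaves. The groups lay far apart, with a log2 fold of 3.06 ± 0.36 (± SE, adjusted p = 7.4e-05). The other 3 leading loci had log2 folds of 3.05 to 3.18. ATCG00490 was also higher, at 67.6, 80.6 and 60.6 CPM in sink leaves, against 35.6, 22.5 and 50.7 CPM in source leaves (log2 fold 1.17 ± 0.29, adjusted p = 0.010). ATCG00340 had 20.4, 22.1 and 20.8 CPM in sink leaves, against 30.5, 30.3 and 101 CPM in source leaves, with 1 source leaf library far above the rest (log2 fold −1.13 ± 0.36, adjusted p = 0.036). The 19 calls became 11 without the first and 12 without the second WT sink leaf library. With the replicate number as a block, 16 loci were higher and 0 lower, and without the filter on low counts 4 were lower. With each near-equal pair taken once, 13 were higher and 2 lower. The members' median ran between 0.07 without WT source leaf library 2 and 0.60 without library 3.

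WT rosette buds had most plastid loci at lower levels than source leaves. Of 83 loci tested 54 were lower and 2 higher, where 67.4% of all loci passed, 35% as higher and 32.5% as lower, and the members' median log2 fold was −1.41 against 0.05 over all loci. ATCG00480 had 16.1, 14.0 and 10.9 CPM in buds, against 53.3, 41.0 and 54.1 CPM in source leaves (log2 fold −2.43 ± 0.18, adjusted p = 3.4e-08). All bud libraries lay below all source leaf libraries. ATCG00430 had 0.371, 0.222 and 0.138 CPM in buds, against 3.46, 1.82 and 1.75 CPM in source leaves (log2 fold −3.79 ± 0.40, adjusted p = 1.3e-06). The notes of the annotation call this locus photosystem II reaction center protein G, a name that was not checked. ATCG00190 went the other way, with 17.7, 13.7 and 13.2 CPM in buds, against 5.05, 3.31 and 7.24 CPM in source leaves (log2 fold 0.94 ± 0.28, adjusted p = 0.0091). ATCG00800, at 1.53, 1.37 and 1.34 CPM in buds, against 0.557, 0.431 and 0.584 CPM in source leaves, was the second locus that was higher. The 4 leading loci did not pass, with log2 folds of 0.74 for ATCG00920 and 0.78 for ATCG00950 (adjusted p = 0.062 and 0.053), although the libraries of these loci did not overlap. The number of higher loci was 4 with DESeq2 size factors, 5 without the filter, 6 without the third WT bud library, 9 without the third WT source leaf library and 1 without any other 1 library or with DESeq2.

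WT flowers gave a like picture, with 59 of 83 plastid loci lower and 4 higher than in source leaves, where 74.8% of all loci passed, 41.3% as higher and 33.5% as lower. The members' median log2 fold was −1.71, against 0.12 over all loci. ATCG00330 had 0.490, 1.09 and 0.930 CPM in flowers, against 5.02, 4.55 and 12.5 CPM in source leaves (log2 fold −3.65 ± 0.40, adjusted p = 1.3e-06). All 3 flower libraries lay below every source leaf library. ATCG00340, ATCG00350 and ATCG00270 followed with log2 folds of −3.41, −3.54 and −3.18. The 4 loci that were higher were the 4 leading loci, with ATCG00950 at 2848, 2632 and 1968 CPM in flowers, against 806, 414 and 1526 CPM in source leaves (log2 fold 0.94 ± 0.34, adjusted p = 0.021). These 4 loci are 2 near-equal pairs. None of them passed in edgeR without the first WT flower library or without WT source leaf library 1 or 2, where the adjusted p of ATCG00950 reached 0.0708, and 2 passed without the second WT flower library.

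Nuclear rRNA and mitochondrial loci also had higher mean shares in these 3 WT organs than in source leaves, but in another order. The mean plastid share was highest in sink leaves, nuclear rRNA in buds and mitochondrial counts in flowers. Nuclear rRNA averaged 0.609% in WT sink leaves, 0.894% in WT buds and 0.591% in WT flowers, against 0.303% in WT source leaves, and no library overlapped with source leaves. Locus by locus, 2 of the 4 nuclear rRNA loci passed as higher in WT sink leaves and all 4 in WT buds. In WT flowers 2 passed as higher and 2 as lower, with a median log2 fold of −0.28. The 146 mitochondrial loci averaged 0.0530%, 0.0924% and 0.0962% in these 3 organs, against 0.0379% in source leaves. Their share in sink leaves overlapped with source leaves, while buds and flowers lay above every source leaf library. The summed level of 23 nuclear photosynthesis genes was 165860 CPM in WT sink leaves, 57977 CPM in WT buds and 25899 CPM in WT flowers, against 103722 CPM in WT source leaves. The part of these in the plastid values was not tested.

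**Figure D3:**
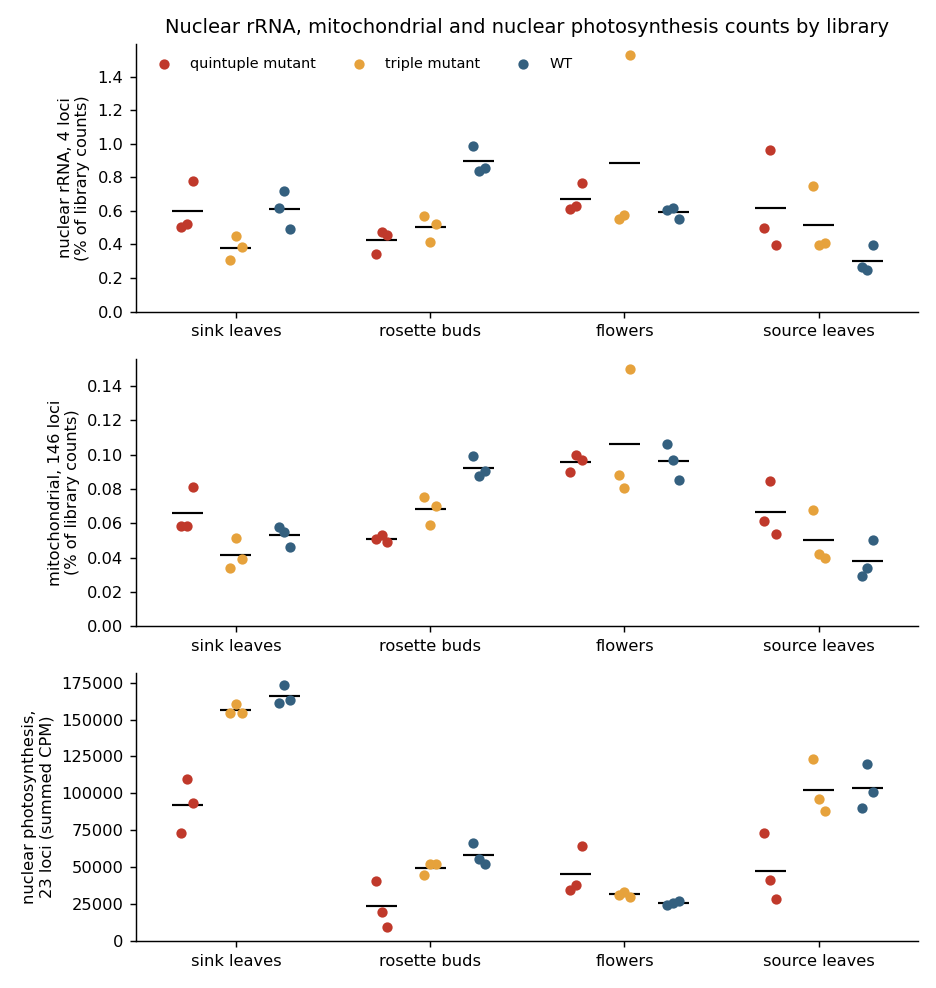
Counts that stand beside the plastid share. From top to bottom, 4 nuclear rRNA loci and 146 mitochondrial loci as percent of library counts and the summed CPM of 23 nuclear photosynthesis genes; points are libraries, black lines are means of 3, groups run quintuple, triple, WT within each tissue. The third triple flower library stands at 1.53% nuclear rRNA and 0.150% mitochondrial counts, and WT source leaves have the lowest mean of both.

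In source leaves, the triple mutant had more counts on the 4 leading loci than WT and fewer on 3 other loci. The plastid share was 2.20%, 1.26% and 0.974% in triple source leaves, against 0.288%, 0.160% and 0.539% in WT, without overlap. The remaining 129 loci summed to 518, 395 and 440 CPM in triple leaves, against 453, 351 and 836 CPM in WT, with overlap. Of 78 loci tested 5 were higher and 3 lower, where 16.4% of all loci passed, 8.86% as higher and 7.51% as lower, and the median log2 fold of the members was −0.32, against −0.01 over all loci.

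ATCG00950 had 6934, 4010 and 3022 CPM in triple source leaves, against 806, 414 and 1526 CPM in WT (log2 fold 2.39 ± 0.49, adjusted p = 0.014). ATCG00920 had 3798, 2082 and 1625 CPM, against 407, 202 and 753 CPM in WT (log2 fold 2.51 ± 0.50, adjusted p = 0.012). Every triple library lay above every WT library at both loci and at ATCG01180 and ATCG01210. ATCG00630 was the fifth locus that was higher (log2 fold 1.15 ± 0.30, adjusted p = 0.032). ATCG00340 had 20.3, 12.5 and 16.5 CPM in triple source leaves, against 30.5, 30.3 and 101 CPM in WT, which sets all triple libraries below WT (log2 fold −1.71 ± 0.45, adjusted p = 0.033). ATCG00350 and ATCG00270 were lower in the same way, with log2 folds of −1.68 ± 0.43 and −1.29 ± 0.36. With each near-equal pair taken once, 3 loci were higher and 2 lower. Without the third WT library the members' median was −0.04 and 1 locus was lower, and without the second WT library the median was −0.53. Without the filter on low counts 5 loci were lower. The 8 calls became 13 without the first and 4 without the second triple library and 4 without the first WT library. Without the second triple library 4 loci were higher and 0 lower in edgeR, and without the third 6 were higher and 0 lower. In these 2 fits 15 and 19 loci had an unadjusted p under 0.05 in either direction. In a fit with the quintuple libraries added, 0 loci passed and 13 had an unadjusted p under 0.05, where 232 of all loci passed.

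In quintuple source leaves the same 4 loci did not pass, and 2 other loci were lower. The plastid share was 1.37%, 1.54% and 0.496% in quintuple leaves, against 0.288%, 0.160% and 0.539% in WT, so that the third quintuple library lay among the WT values. ATCG00950 had 4394, 5109 and 1518 CPM in quintuple leaves, against 806, 414 and 1526 CPM in WT (log2 fold 1.83 ± 0.60, adjusted p = 0.069). Of 79 loci tested 0 were higher and 2 lower, where 18% of all loci passed, 9.19% as higher and 8.85% as lower, with a median log2 fold of −0.28 for the members and 0.02 for all loci. The 2 loci were ATCG00480, at 39.8, 34.6 and 29.5 CPM in quintuple leaves, against 53.3, 41.0 and 54.1 CPM in WT (log2 fold −0.72 ± 0.17, adjusted p = 0.033), and ATCG00470 (log2 fold −0.71 ± 0.18, adjusted p = 0.038). All 3 quintuple libraries were below WT at both. Without the second quintuple library or without any 1 WT library 0 loci passed in edgeR (6 to 17 had an unadjusted p under 0.05), and with the replicate block also 0 (4 at an unadjusted p under 0.05), while 1 was higher and 4 lower without the first quintuple library and 4 were higher and 1 lower without the third. With DESeq2 4 were higher and 2 lower, and with the triple libraries added to the fit 5 were higher and 3 lower. The members' median was 0.14 without the third WT library, −0.58 without quintuple library 2 and −0.09 without quintuple library 3.

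Beside these values, nuclear rRNA was 0.495%, 0.961% and 0.396% in quintuple and 0.746%, 0.396% and 0.406% in triple source leaves, against 0.268%, 0.246% and 0.395% in WT. In both mutants every library was above every WT library. Mitochondrial counts were 0.0614%, 0.0845% and 0.0538% in quintuple and 0.0680%, 0.0420% and 0.0400% in triple leaves, against 0.0295%, 0.0339% and 0.0504% in WT. The summed nuclear photosynthesis level was 72865, 41553 and 28134 CPM in quintuple leaves, below every WT library, and 123035, 96223 and 88223 CPM in triple leaves, against 90388, 119566 and 101211 CPM in WT. The part of these in the plastid values was not tested.

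In sink leaves, the quintuple mutant had lower levels at 24 plastid loci and higher levels at 0. These were 24 of 81 loci tested, where 24.8% of all loci passed, 11.9% as higher and 12.9% as lower, and the median log2 fold of the members was −0.68, against 0.03 over all loci. The plastid share was 1.21%, 1.56% and 1.73% in quintuple sink leaves, against 2.17%, 2.17% and 1.81% in WT, without overlap. The remaining 129 loci summed to 310, 360 and 492 CPM in quintuple leaves, against 521, 591 and 518 CPM in WT, again without overlap.

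Both the leading and the other loci were lower. ATCG00950 had 3920, 5131 and 5454 CPM in quintuple sink leaves, against 6886, 6824 and 5797 CPM in WT (log2 fold −0.82 ± 0.19, adjusted p = 0.020). ATCG00490 had 25.4, 32.9 and 52.2 CPM, against 67.6, 80.6 and 60.6 CPM in WT (log2 fold −1.31 ± 0.29, adjusted p = 0.017). ATCG00450 had 5.77, 4.94 and 3.88 CPM, against 16.4, 10.5 and 13.1 CPM in WT (log2 fold −1.86 ± 0.22, adjusted p = 0.0039). At all 3 loci every quintuple library lay below every WT library.

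Among the near-equal pairs, ATCG00930 and ATCG01200 both had a log2 fold of −1.77. ATCG00940 and ATCG01190 had −1.55 and −1.73, and ATCG00960 and ATCG01170 had −1.22 and −1.15. The pairs were picked for near-equal counts in these same libraries, so like folds within a pair are not separate results. ATCG00350 passed as lower and its partner ATCG00340 did not, and neither ATCG00830 nor ATCG01310 passed. The largest folds were at loci of few counts. ATCG00970 had 0.127, 0.0445 and 0.0957 CPM in quintuple leaves, against 0.978, 1.26 and 0.702 CPM in WT (log2 fold −3.78 ± 0.54, adjusted p = 0.0054). ATCG01160 and ATCG00400 had log2 folds of −2.98 ± 0.69 and −2.16 ± 0.40 at levels of at most 1.47 CPM. ATCG00480 (log2 fold −0.92 ± 0.24, adjusted p = 0.029) and ATCG00470 (−0.92 ± 0.25, adjusted p = 0.032) passed although quintuple and WT libraries overlapped, and these 2 loci also passed as lower in quintuple source leaves. ATCG00020 was at 33.5, 21.7 and 113 CPM in quintuple leaves, against 72.6, 96.5 and 37.8 CPM in WT, and the groups overlapped (log2 fold −0.69 ± 0.62, adjusted p = 0.43). With each near-equal pair taken once, 19 loci were lower. The 24 calls became 10, 9 and 14 without WT library 1, 2 and 3.

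The triple mutant's sink leaves differed from WT at fewer loci, 7 lower and 1 higher of 81 tested, where 24.5% of all loci passed, 12.4% as higher and 12.1% as lower. The median log2 fold was 0.03 for the members and 0.02 for all loci. ATCG00020 fell the most, to 26.8, 19.7 and 18.6 CPM in triple sink leaves, against 72.6, 96.5 and 37.8 CPM in WT (log2 fold −1.78 ± 0.31, adjusted p = 0.0048). All triple libraries lay below all WT libraries. The 4 leading loci fell by 0.70 to 0.77 on the log2 scale, with ATCG00950 at 3196, 5738 and 3836 CPM in triple leaves, against 6886, 6824 and 5797 CPM in WT (adjusted p = 0.040). ATCG00490 had 41.9, 51.9 and 53.0 CPM, against 67.6, 80.6 and 60.6 CPM in WT (log2 fold −0.61 ± 0.16, adjusted p = 0.024). ATCG00180 was higher, at 6.52, 4.88 and 4.97 CPM in triple leaves, against 2.00, 1.89 and 4.03 CPM in WT (log2 fold 0.95 ± 0.29, adjusted p = 0.043). ATCG00400 completed the loci that were lower.

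The summed share in triple sink leaves was 1.02%, 1.81% and 1.19%, against 2.17%, 2.17% and 1.81% in WT, and the second triple library reached the lowest WT library. The remaining 129 loci summed to 478, 656 and 511 CPM in triple leaves, against 521, 591 and 518 CPM in WT. The 8 calls became 3 and 2 without triple library 1 and 3, 2, 1 and 13 without WT library 1, 2 and 3, and 1 with the quintuple libraries added. With the replicate block 3 loci were higher, without the filter 2, and with each near-equal pair taken once 1 was higher and 5 lower. The members' median ran between −0.19 without the second triple library and 0.12 without the third WT library. Nuclear rRNA was 0.306%, 0.452% and 0.383% in triple sink leaves, against 0.617%, 0.718% and 0.492% in WT, and all 4 nuclear rRNA loci passed as lower. In quintuple sink leaves nuclear rRNA overlapped with WT at 0.502%, 0.522% and 0.775%. Mitochondrial counts were 0.0582%, 0.0586% and 0.0809% in quintuple and 0.0342%, 0.0514% and 0.0389% in triple sink leaves, against 0.0578%, 0.0552% and 0.0461% in WT. The summed nuclear photosynthesis level was 72822, 109729 and 93435 CPM in quintuple sink leaves and 154772, 160254 and 154135 CPM in triple sink leaves, against 161214, 173140 and 163227 CPM in WT. The part of these in the plastid values was not tested.

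**Figure D4:**
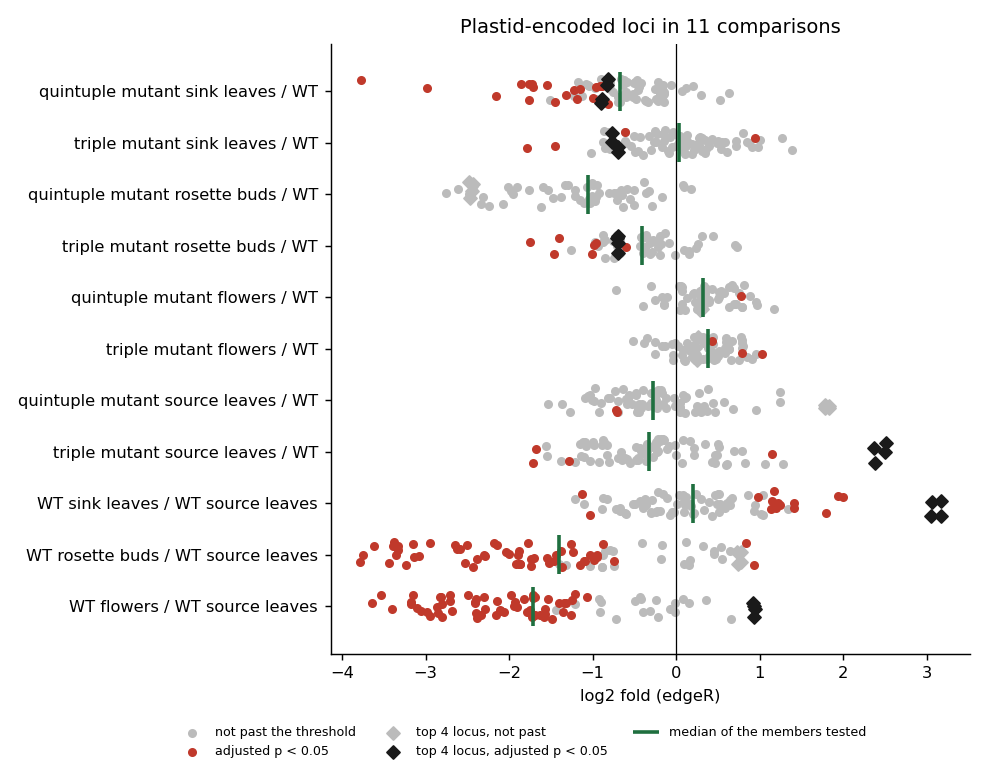
Log2 folds of the tested plastid-encoded loci in 11 comparisons. Each row is a comparison, each point a locus (x axis, edgeR log2 fold of the first-named group over the second), with loci past an adjusted p of 0.05 in red, the 4 leading loci as diamonds (black where they passed) and the median of the members as a green bar. Medians run between −1.71 in WT flowers over source leaves and 0.38 in triple flowers over WT, and the 4 leading loci stand at 2.37 to 2.51 in triple source leaves over WT and at 3.05 to 3.18 in WT sink leaves over source leaves.

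In rosette buds, quintuple plants had the lowest mean plastid share of the 12 groups, at 0.146% ± 0.128 (SD, n = 3). The share was 0.289%, 0.106% and 0.0437% in quintuple buds, against 0.893%, 0.619% and 0.623% in WT, and the remaining 129 loci summed to 156, 74.3 and 59.4 CPM, against 281, 209 and 179 CPM in WT. Neither measure overlapped. Of 58 loci tested 55 had a log2 fold below 0, and the median of the members was −1.06, against 0.02 over all loci. ATCG00950 had 954, 315 and 112 CPM in quintuple buds, against 2956, 1970 and 2057 CPM in WT (log2 fold −2.47 ± 0.74, adjusted p = 0.10). ATCG00490 had 6.63, 2.59 and 1.69 CPM, against 33.7, 19.4 and 14.2 CPM in WT (log2 fold −2.75 ± 0.58, adjusted p = 0.060). At both loci the groups stood apart, but the quintuple libraries differed severalfold among themselves.

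No plastid locus passed in edgeR in quintuple buds, where 2.27% of all loci passed, 1.7% as higher and 0.568% as lower. An unadjusted p under 0.05 was reached by 28 of 58 plastid loci, against 6050 of all 20417 loci. With DESeq2 22 of 58 plastid loci passed, against 4012 of all 20409. With the triple libraries added to the fit 21 of 59 passed, against 3870 of all 20552. The replicate block gave 2 of 58, against 258 of all 20417. Without the first quintuple library 39 of 61 passed, against 10874 of all 20746. All plastid loci that passed in these settings were lower. The quintuple bud libraries also differed in the summed nuclear photosynthesis level, at 40586, 19858 and 9524 CPM, against 66212, 55528 and 52191 CPM in WT buds. Nuclear rRNA was 0.342%, 0.473% and 0.459% in quintuple buds, against 0.989%, 0.838% and 0.856% in WT, and mitochondrial counts were 0.0508%, 0.0530% and 0.0490%, against 0.0993%, 0.0874% and 0.0906% in WT. The part of these in the plastid values was not tested.

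Triple buds had 11 of 55 tested loci lower and 0 higher than WT, where 16.5% of all loci passed, 7.62% as higher and 8.86% as lower. The median log2 fold was −0.41 for the members and −0.01 for all loci. The share was 0.460%, 0.436% and 0.489% in triple buds, against 0.893%, 0.619% and 0.623% in WT, without overlap, while the remaining 129 loci summed to 171, 185 and 179 CPM, against 281, 209 and 179 CPM in WT.

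ATCG00020 again had the largest fall in the triple mutant, to 2.10, 3.14 and 2.52 CPM in triple buds, against 11.997, 7.80 and 5.02 CPM in WT (log2 fold −1.75 ± 0.33, adjusted p = 0.011). The triple libraries lay closely together and below WT. ATCG00340 had 4.60, 3.78 and 4.04 CPM in triple buds, against 9.52, 7.31 and 6.13 CPM in WT (log2 fold −0.96 ± 0.20, adjusted p = 0.016). ATCG00490 had 11.4, 11.9 and 11.9 CPM, against 33.7, 19.4 and 14.2 CPM in WT (log2 fold −1.01 ± 0.28, adjusted p = 0.043). ATCG00330 and ATCG01020 fell by 1.46 and 1.40 on the log2 scale at levels of at most 1.52 CPM, and the 4 leading loci fell by 0.70 to 0.71. With each near-equal pair taken once, 9 loci were lower. The 11 calls became 3, 1 and 2 without triple library 1, 2 and 3, 5 and 7 without WT library 1 and 2, 2 with the replicate block and 0 with the quintuple libraries added (4 plastid and 2394 of all loci at an unadjusted p under 0.05). Nuclear rRNA was 0.572%, 0.414% and 0.520% in triple buds, against 0.989%, 0.838% and 0.856% in WT, with all 4 loci passing as lower. Mitochondrial counts were 0.0754%, 0.0592% and 0.0701% in triple buds, against 0.0993%, 0.0874% and 0.0906% in WT, and the summed nuclear photosynthesis level was 44691, 52091 and 51887 CPM, against 66212, 55528 and 52191 CPM in WT, all without overlap. The part of these in the plastid values was not tested.

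In flowers, few plastid loci differed between genotypes. The share was 0.748%, 0.966% and 1.21% in quintuple flowers and 0.757%, 0.724% and 1.37% in triple flowers, against 0.863%, 0.806% and 0.606% in WT, and all groups overlapped. The remaining 129 loci summed to 234, 199.6 and 358 CPM in quintuple flowers and 200.04, 226 and 359.6 CPM in triple flowers, against 182, 189.7 and 192 CPM in WT. These sums did not overlap with WT in either mutant. The highest triple sum was that of the third library, which also had 1.53% nuclear rRNA and 0.150% mitochondrial counts.

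In quintuple flowers 1 of 62 loci tested passed, where 38.6% of all loci passed, 19.7% as higher and 18.8% as lower, and the members' median log2 fold was 0.33, against 0.01 over all loci. It was ATCG00020, at 16.8, 13.1 and 25.03 CPM in quintuple flowers, against 8.38, 10.1 and 12.04 CPM in WT (log2 fold 0.78 ± 0.25, adjusted p = 0.045). In triple flowers 3 of 62 loci were higher and 0 lower, where 26.6% of all loci passed, 11% as higher and 15.6% as lower, with a median of 0.38 for the members and 0.01 for all loci. ATCG00170 had 3.69, 4.65 and 6.73 CPM in triple flowers, against 1.69, 2.48 and 2.74 CPM in WT (log2 fold 1.03 ± 0.27, adjusted p = 0.019). ATCG00120 had 5.47, 6.16 and 9.76 CPM, against 3.70, 4.77 and 3.15 CPM in WT, and ATCG00190 had 11.4, 14.8 and 15.1 CPM, against 8.38, 10.2 and 10.02 CPM in WT. No triple library overlapped with WT at these 3 loci. The ATCG00020 call of the quintuple mutant was lost without the first quintuple or the first or second WT library (0 calls each in edgeR, with 4, 2 and 0 loci at an unadjusted p under 0.05), and 3 and 4 loci passed without quintuple library 2 and 3. The 3 triple calls became 6 and 0 without triple library 1 and 3, 0, 1 and 1 without WT library 1, 2 and 3, and 0 with the quintuple libraries added (4 or 5 loci at an unadjusted p under 0.05 where 0 passed). The members' median was 0.09 without the third quintuple library and 0.11 without the third triple library. The summed nuclear photosynthesis level was 34269, 38092 and 64252 CPM in quintuple flowers and 31128, 33446 and 29825 CPM in triple flowers, against 24574, 25932 and 27192 CPM in WT. Nuclear rRNA was 0.612%, 0.631% and 0.767% in quintuple and 0.553%, 0.575% and 1.53% in triple flowers, against 0.607%, 0.616% and 0.550% in WT. Of the 4 nuclear rRNA loci, 2 passed as higher in quintuple and 1 in triple flowers. Mitochondrial counts were 0.0901%, 0.0998% and 0.0969% in quintuple and 0.0884%, 0.0809% and 0.150% in triple flowers, against 0.107%, 0.0970% and 0.0852% in WT. The part of these in the plastid values was not tested.

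The levels of 6 loci over all libraries, plotted on log axes, show how differently they were ordered. ATCG00950 had its highest group mean in WT sink leaves. ATCG00020 stood at 29.2 to 96.5 CPM in WT leaves and at 5.02 to 12.04 CPM in WT buds and flowers, while ATCG00190 stood at 3.31 to 9.78 CPM in WT leaves and at 8.38 to 17.7 CPM in WT buds and flowers.

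**Figure D5:**
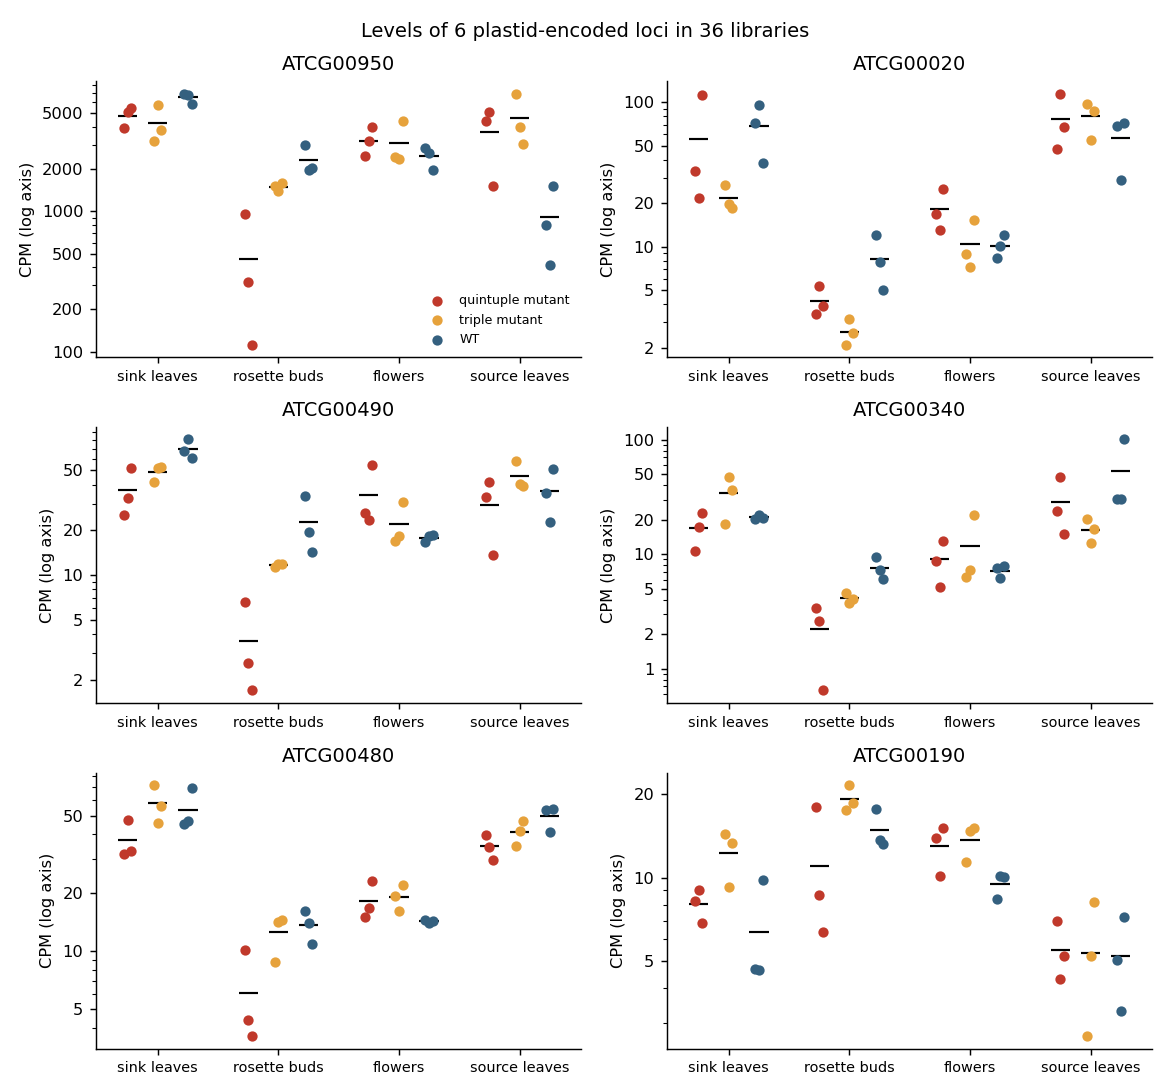
Levels of 6 plastid-encoded loci in 36 libraries. Each panel shows 1 locus in CPM on a log axis; points are libraries, black lines are means of 3, groups run quintuple, triple, WT within each tissue. ATCG00020 lies at 18.6 to 26.8 CPM in triple sink leaves, below all WT sink leaf libraries (37.8 to 96.5 CPM), and the 3 quintuple bud libraries of ATCG00950 run between 112 and 954 CPM.

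Whether a mutant's difference from WT depended on the tissue was tested with 3 genotype by tissue terms per mutant. In the quintuple mutant 12 of 88 plastid loci passed, where 23.2% of all loci passed, and in the triple mutant 10 of 85, where 16.4% passed. The 4 leading loci had the smallest p in both mutants, between 0.0020 and 0.0051 in the quintuple and between 0.00081 and 0.0012 in the triple mutant (edgeR, adjusted). A term is the log2 fold of mutant over WT in a tissue minus that in source leaves. At ATCG01210 the terms of the quintuple mutant were −2.73 in sink leaves, −4.26 in buds and −1.55 in flowers. Those of the triple mutant were −3.29, −3.24 and −2.29. ATCG00020 passed in the triple mutant, with terms of −2.29 in sink leaves, −2.29 in buds and −0.58 in flowers, and ATCG00490 passed in the quintuple mutant, with terms of −0.90, −2.32 and 1.33 in the same order. Without replicate number 2 in every group 0 plastid loci passed in the quintuple mutant (10 at an unadjusted p under 0.05) and 4 in the triple mutant, and without number 1 the triple mutant had 2.

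Over the 8 comparisons of a mutant with WT, 51 of the 133 loci were tested in all 8 and 49 in none. The low counts of many loci limit what could be tested, since a locus had to reach the expression filter in at least 1 group. The comparisons of both mutants in a tissue share the same WT libraries. In the triple mutant ATCG00020 and ATCG00490 were lower in sink leaves and buds, ATCG00340 in source leaves and buds, and the 4 leading loci in sink leaves and buds but higher in source leaves.

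The nuclear genes that serve plastid transcription and RNA decay were counted beside the plastid loci. Of 12 genes for proteins associated with the plastid-encoded polymerase, all 12 passed as higher in triple sink leaves, 9 in triple buds, 6 in triple flowers and 6 in triple source leaves, with median log2 folds of 1.05, 0.45, 0.29 and 0.62, and 0 passed as lower in any of these 4 tissues. Of all loci tested, 12.4%, 7.62%, 11% and 8.86% passed as higher in these tissues in the same order. With the quintuple libraries added to the fit all 12 still passed in sink leaves, while 0 passed in edgeR in buds, flowers and source leaves (1, 2 and 7 at an unadjusted p under 0.05). FLN1, a fructokinase-like member of this group, had 48.6, 50.8 and 47.0 CPM in triple sink leaves, against 13.6, 10.2 and 17.3 CPM in WT (log2 fold 1.74 ± 0.17, adjusted p = 0.0013). PTAC12 (log2 fold 1.51 ± 0.13) and PDE312 (1.76 ± 0.17) were higher there too. In the same triple sink leaves 7 of the 81 plastid loci were lower and 1 was higher. In the quintuple mutant 0 of the 12 genes passed in source leaves or buds. In sink leaves 1 was higher and 1 lower, and in flowers 2 were higher. Of all loci tested in the quintuple mutant, 18% passed in source leaves and 2.27% in buds in either direction. In its sink leaves 11.9% passed as higher and 12.9% as lower, and in its flowers 19.7% passed as higher.

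SCA3, a phage-type RNA polymerase of plastids, was higher in all 4 triple tissues, with log2 folds of 1.18 in source leaves, 1.55 in sink leaves, 0.86 in buds and 0.58 in flowers, and of these calls the one in sink leaves was kept with the quintuple libraries added to the fit. SIGE, a sigma factor known for its response to light and stress, had 77.6, 78.7 and 91.1 CPM in triple sink leaves and 125, 70.3 and 79.4 CPM in quintuple sink leaves, against 170, 158 and 129 CPM in WT. It was lower in both mutants in sink leaves (log2 fold −0.98 ± 0.14 in the triple and −1.15 ± 0.21 in the quintuple mutant). In source leaves SIGE was also lower in both (−0.87 ± 0.18 and −1.07 ± 0.18, in the same order). There the triple mutant's call was lost with the quintuple libraries added to the fit. Over 12 alternative settings the source leaf call was kept in 10 in the triple and in 7 in the quintuple mutant. Both sink leaf calls were kept in all 12. SIGE also passed as lower in triple buds, where the call was kept in 10 of 12 settings. In quintuple sink leaves 4 of the 8 sigma factor and polymerase genes were lower and 1 higher, and SIG2 and SIG4 fell by 1.04 and 1.17 on the log2 scale. Of 6 nuclear genes for the stability and decay of plastid RNA, 3 were higher and 0 lower in triple sink leaves, while 0 were higher and 2 lower in quintuple sink leaves. Those 2 were CSP41A and CRB, RNA-binding proteins of the chloroplast that stabilise plastid transcripts, which fell by 1.32 and 1.40 on the log2 scale. Of the 23 nuclear photosynthesis genes 22 were lower and 0 higher in quintuple sink leaves, with a median log2 fold of −1.36. In triple sink leaves 5 were lower and 0 higher, with a median of −0.19. Of all loci tested, 12.4% passed as higher and 12.1% as lower in triple sink leaves, and 11.9% and 12.9% in quintuple sink leaves.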

How the data were processed

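Counts per locus were taken as the authors deposited them, in 8 tables of raw counts, 1 for each mutant and tissue with the WT libraries of that tissue; the WT columns were identical in both tables of a tissue and were used once. The submitters' processing notes list the TAIR10 build, R 3.5.1 with DESeq2 and edgeR, SAMtools 0.1.18 and Salmon 0.7.2, without roles. Whether strand or multiply placed reads were used in counting is not stated there. The members, gene lists and tests were chosen with earlier results of these data known. Plastid, mitochondrial (ATMG) and nuclear loci were told apart by locus name, and the 56 nuclear list loci were all found in the RefSeq annotation.

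Levels printed per library are counts per 1000000 counts of the library (CPM). Folds come from edgeR 4.0.16 (R 4.3.3) quasi-likelihood fits over all loci kept by filterByExpr, with TMM factors (0.664 to 1.36) and Benjamini-Hochberg adjustment over all loci tested at a threshold of 0.05. Each mutant was fitted with WT of its tissue, the 12 WT libraries in 1 fit, and the tissue dependence in 24 libraries. The fits were tested on simulated data. DESeq2 1.42.0, other scalings and filters, the replicate block and leaving out libraries were alternatives. Named loci are the 10 with the largest share, up to 4 in each direction per comparison by fold, for the tissue test 8 per mutant by p, those that passed in the same direction in 2 tissues of a mutant, and up to 3 nuclear genes per list and comparison by p; others were chosen after their values were seen. Replicates differed beyond counting noise (chi-square per locus at least 5.2). Same-numbered replicates deviated together in 1 of 11 comparisons, WT sink against WT source leaves (correlations of 0.18, 0.179 and 0.323, limit 0.1), and are not named as paired in the labels. The labels call the replicates biological but do not say whether they were separate plants or pools, so p-values measure the spread between these samples.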

Additional observations from a re-analysis of the deposited data

Results flagged for a closer look

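The difference between mutant and WT depended on the tissue, by the edgeR test of 3 genotype by tissue terms, at the loci named here. In the quintuple mutant the adjusted p was 0.00199 for ATCG01210, 0.00221 for ATCG00920, 0.00464 for ATCG01180, 0.00507 for ATCG00950, 0.00558 for ATCG00490, 0.0118 for ATCG00960, 0.0243 for ATCG00890 and 0.034 for ATCG00790. In the triple mutant it was 0.000814 for ATCG01210, 0.0009 for ATCG00920, 0.00121 for ATCG01180, 0.00122 for ATCG00950, 0.00566 for ATCG00020, 0.0208 for ATCG00120, 0.0218 for ATCG00340 and 0.0302 for ATCG00350. In each mutant the share of plastid loci that passed was below that of all loci.

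The summed plastid share moved in opposite directions in 2 tissues of the triple mutant. It was 1.147 percentage points higher than WT in triple source leaves, with every library above WT, and lay at −0.2498 percentage points from WT in triple buds, with every library below WT. The sum of the 129 loci outside the top 4 did so in the quintuple mutant, at 76.01 CPM above WT in flowers and at −156.2 and −126.3 CPM from WT in sink leaves and buds, again without overlap. These differences between tissues were not tested.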

How the results depend on the processing

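Scaling by DESeq2 size factors or by nuclear loci and dropping the filter kept the number of plastid loci that passed in either direction within 1.5 times in every comparison; numbers in 1 direction moved further where they were small, as given beside the results. With DESeq2 the count was 6 in quintuple source leaves, 22 in quintuple buds, 2 in quintuple flowers, and 22 and 17 for the tissue test in the quintuple and triple mutant. The labels do not pair replicates of the mutants with WT, and no mutant comparison passed the limit for same-numbered replicates. The nearest was triple sink leaves, with correlations of 0.209, 0.0982 and 0.196. The replicate block gave 0 in quintuple source leaves, 2 in quintuple buds and 2 in triple buds. It moved no other number in either direction by over 1.5 times. In 1 direction, the higher loci in triple sink leaves became 3 and the lower loci in WT sink leaves became 0. With all 9 libraries of a tissue in the fit, the quintuple mutant had 8 in source leaves, 21 in buds and 3 in flowers, and the triple mutant had 0 in source leaves, buds and flowers (13, 4 and 4 at an unadjusted p under 0.05) and 1 in sink leaves. The cause was not tested.

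Leaving out 1 library gave 0 to 5 loci in quintuple source leaves, 4 to 13 in triple source leaves, 9 to 27 in quintuple sink leaves, 1 to 13 in triple sink leaves, 0 to 39 in quintuple buds, 1 to 15 in triple buds, 0 to 4 in quintuple flowers, 0 to 6 in triple flowers 11 to 16 in WT sink leaves, 48 to 57 in WT buds and 52 to 62 in WT flowers (0 to 5 of them higher), and for the tissue test, by replicate number, 0 to 15 in the quintuple and 2 to 8 in the triple mutant. The number of calls over all loci moved in these runs too, from 0 to 10874 in quintuple buds and from 29 to 7869 in quintuple source leaves. Of 137 named calls of plastid loci and nuclear genes, 0 reversed in sign and 54 held in every setting where the locus was tested. A reversal could not be seen for calls of the tissue test, since these were followed by adjusted p alone. The share difference in triple flowers ran from −0.01824 without the third triple library to 0.3029 percentage points.

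Without the 4 leading loci, chosen after seeing the data, the share differed from WT by −0.008829 and −0.009555 percentage points in quintuple and triple source leaves, −0.01562 and 0.0004741 in sink leaves and −0.01263 and −0.004457 in buds. Against WT source leaves it differed by −0.0003111 in WT sink leaves, −0.03237 in WT buds and −0.03585 in WT flowers. Adding the copies of the inverted repeat and keeping protein-coding members alone were not run, since the annotation used here does not pair the locus names. Loci of under 1 CPM rest on few counts per library.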
